A study of Mus musculus with 6 samples.

Results

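The genes described here encode receptors, ligands and binding proteins of blood vessel growth, growth factor signalling and axon guidance, read out in CD8+ T cells that had infiltrated a mouse tumour. They were chosen by name: every gene in the authors' deposited table whose symbol begins with, or equals, a name of the VEGF, PDGF, FGF, IGF, TIE and angiopoietin, Eph and ephrin, semaphorin and plexin, neuropilin, Slit and Robo, netrin and Unc5, ErbB, Met, TAM, Kit and Flt3, or Ddr families. This gave 84 of the table's 6467 genes, or 1.30%. Of these, 5 carry only a similar symbol and belong to no such family (Ddrgk1, Fgfr1op2, Igf2bp1, Igf2bp2 and Unc5cl). Among the protein-coding symbols of mouse RefSeq, 160 fit the same names, so 52.5% were in the deposited table and 76 were outside it, among them Tek, Kit, Egfr, Nrp1, Angpt1, Fgf2, Igf2 and Robo1.

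The study compared 2 groups of 3 libraries. Mice of the treated group had been given 30 µg αPD-1-IL-15-R, an antibody against PD-1 that carries concealed IL-15 according to the series title, by intraperitoneal injection on days 14 and 17. The other group had been given PBS. All mice were wild-type C57/B6J animals inoculated with MC38, a mouse colon carcinoma line, and CD8+ cells were sorted from the tumours 48 hours after the later injection. No group was given the antibody or IL-15 alone. The labels do not say whether a library came from 1 mouse or a pool, so p-values measure only the spread between these libraries, which may be technical.

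Vascular endothelial growth factors act through the receptor kinases Flt1, Kdr and Flt4 on endothelium, and angiopoietins act there through the Tie receptors. Platelet-derived and fibroblast growth factors drive fibroblasts and pericytes, while insulin-like growth factors are held by a set of secreted binding proteins. Ephrins, semaphorins, netrins and Slits were described as guidance cues for axons and also steer vessels and leukocytes. Tumour vessels, fibroblasts and macrophages are known sources of most of these molecules, whereas T cells are known for Sema4d, Sema4a and Flt3l. Each member was placed by textbook knowledge in an endothelial (12), mesenchymal (23), epithelial (8) or leukocyte (7) compartment, or called broad (34).

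Across the 84 genes, 75 were lower and 9 were higher in the treated libraries, 6 of the 9 turning lower when scaled on T cell receptor signalling genes. Every member had already passed the authors' own threshold, a q-value below 0.05, since the table holds only such genes, 37.9% of the 17077 they tested. In the table as a whole 57.7% were lower and 42.3% higher in the treated libraries, against 89.3% of the members lower. Normalised read counts, the deposited counts divided by size factors, did not overlap between the groups for any of the 84 members, 75 being lower and 9 higher in all treated libraries. This was also so of 57.2% and 42.1% of the table's genes.

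Fitted with edgeR's quasi-likelihood test, with Benjamini-Hochberg adjustment over the 17077 genes, 19 members were called lower and 3 called higher at an adjusted p below 0.05. The background was 20.7% of fitted table genes called lower and 16.5% called higher, against 24.4% and 3.85% of the 78 members fitted. These shares, and the 57.7% of table genes that were lower, are also the background for each family, compartment and list counted below. The median log2 change of the members was -2.61, against -0.57 over all fitted genes. The other 6 members, at most 35 reads in any library, were not fitted. Of the 78, 74 had an unadjusted p below 0.05, as did 6127 of the 6251 fitted table genes. The 4 others were Met, Erbb2, Sema5a and Slit2. Scaled on T cell receptor signalling genes instead, edgeR called 43 members lower and 0 higher, against 2919 and 34 table genes. Without treated library 1 it called 70 members lower and 6 higher, against 3040 and 1509 table genes. Without PBS library 2 it called 13 and 6, against 1369 and 1649 table genes. Without treated library 2, treated library 3, PBS library 1 or PBS library 3 it called 0 members either way, and 0 genes of the whole table, although between 41 and 56 members were lower and between 4 and 9 higher at an unadjusted p below 0.05. DESeq2 on all 6 libraries called 74 members lower and 9 higher, against 3674 and 2677 of the 6467 table genes.

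Transcripts of other cell types were present beside those of T cells in every library. Reads in the table ran from 8484736 to 9403710 per library. Of T cell markers, 6 of 15 listed were in the table and all 6 were higher in the treated libraries. Each had an authors' q-value below 0.05, but 0 were called by edgeR. When scaled on T cell receptor signalling genes, 5 of them stood lower. Cd3d, Cd2 and Cd28, which turned, and Cd247, which did not, are themselves among those scaling genes. The scaling largely sets the change of these genes, so a turn among them is no separate result. Cd8b1 and Thy1, not among the scaling genes, stood at 0.98 and 1.11 on the log2 scale (edgeR adjusted p = 0.13 and 0.090). With that scaling Cd8b1 and Thy1 stood at -0.34 and -0.21. The summed TPM of the 6 markers (a length-corrected share of each library) was 4130 to 4901 in the treated libraries and 1442 to 4048 in the PBS libraries. The defining genes Cd3e and Cd8a were outside the table, so no level is given for them. In such sorted bulk samples, fewer cells of a type and less RNA per cell cannot be told apart.

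**Figure D1:**
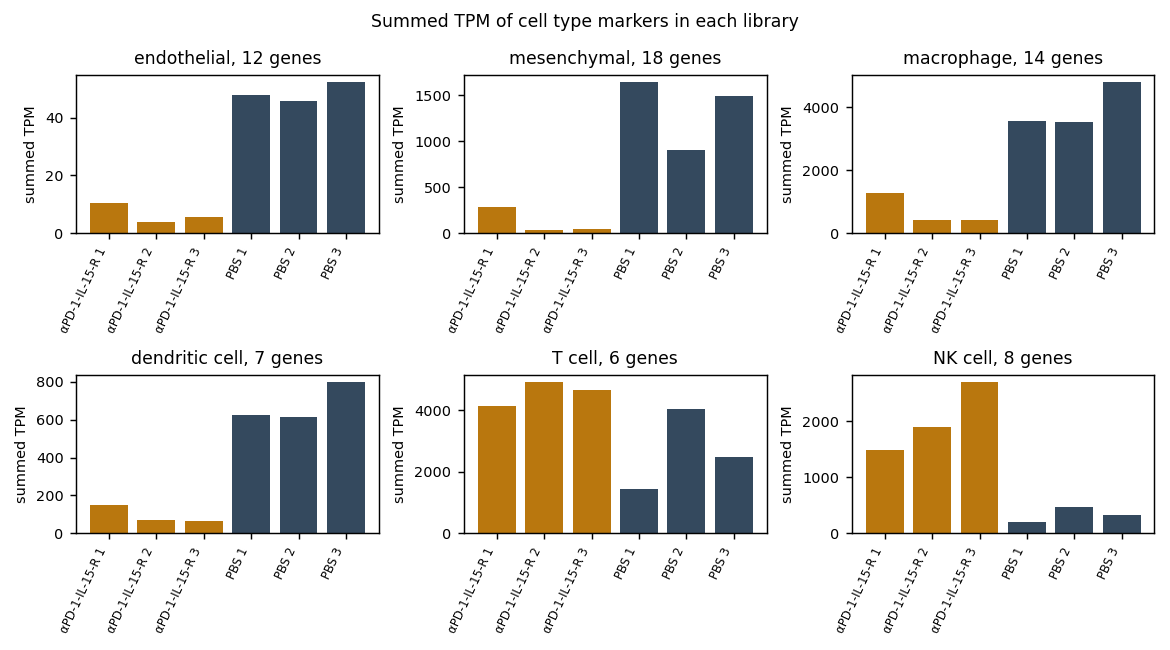
Summed TPM (vertical axis) of the table's marker genes of 6 cell types in each library, treated libraries in orange and PBS libraries in dark blue. Endothelial, mesenchymal, macrophage and dendritic cell sums were below the PBS range in all 3 treated libraries, and among the treated libraries they were highest in library 1. T cell and NK cell sums were above the PBS range, and T cell sums were lowest in PBS library 1. Gzma, also used by CD8+ T cells, was the largest part of the NK cell sum in every library.

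Markers of other cell types moved in the same direction as most members. Endothelial markers summed to 10.3, 3.79 and 5.69 TPM in treated libraries 1 to 3, against 47.9, 45.7 and 52.3 TPM in PBS libraries 1 to 3. All 12 in the table, of 22 listed, were lower, 4 of them called, while Pecam1, Cldn5 and Erg were outside the table. Similar PBS sums hid unlike genes: Ecscr gave 24.4, 12.9 and 19.6 TPM in PBS libraries 1 to 3, and Cdh5 0.99, 3.52 and 2.92. Of the 12, 8 had most normalised reads in PBS library 2, and 2, Ecscr among them, in PBS library 1. Mesenchymal markers summed to 288, 32.5 and 44.8 TPM in the treated libraries and 1642, 904 and 1493 TPM in the PBS libraries, and all 18 in the table, of 20 listed, were lower (7 called). Macrophage markers, 14 of 16 listed and all lower (11 called), summed to 1265, 409 and 418 TPM in the treated libraries and 3581, 3522 and 4808 TPM in the PBS libraries. Dendritic cell markers, 7 of 10 listed, were all called lower. The sums of each of these lists were lower in every treated library than in any PBS library, as the plot of summed marker TPM shows. Their part in the members' changes was not tested.

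Lists for the remaining cell types gave little or went the other way. Of 15 epithelial markers only Cdh1 was in the table, at 0.72 on the log2 scale (edgeR adjusted p = 0.066, and -0.74 when scaled on T cell receptor signalling genes), and Krt8, Krt18 and Epcam were outside it. The epithelial compartment name therefore has no support from marker genes here and stands only for textbook expression. Single genes of the mast cell list (Gata2) and of the B cell list (Ebf1) were in the table, both lower. NK cell markers were 7 higher and 1 lower of 8 in the table, with 5 called higher and 2 of the 7 turning lower when scaled on T cell receptor signalling genes, and Gzma and Eomes on that list are also used by CD8+ T cells. They summed to 1489 to 2699 TPM in the treated libraries, against 206 to 477 TPM in the PBS libraries. Gzma was the largest part of that sum in every library, at 1208 to 2380.5 TPM in the treated and 86.55 to 277 TPM in the PBS libraries. The sum therefore does not stand for NK cells alone.

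Most members fell into 3 patterns over the libraries, noticed after the values were seen and given as a description. In 56 of the 75 lower members (74.7%, against 64.4% of all lower table genes) the PBS libraries stood in the order 1, 3, 2 from high to low. PBS library 1 was highest in 57 lower members, against 66.9% of lower table genes. Library 1 was the highest treated library in 67 of all 75 lower members, against 85.7% of lower table genes. Among the 57 it was so in 56, and treated library 1 stood at a median of 6.80 times the mean of treated libraries 2 and 3. In 11 lower members (14.7%, against 4.71% of lower table genes) PBS library 2 was highest, at a median of 2.98 times PBS library 1, and treated library 1 stood at a median of 0.89 times the other treated libraries. These were Kdr, Flt4, Tie1, Robo4, Angpt2, Flt3, Igfbp3, Igfbp5, Igfbp7, Slit3 and Sema3f. Outside these patterns, 7 lower members had PBS library 3 highest: Flt1, Fgf1, Fgfr3, Igf1, Mertk, Pdgfc and Sema3c. In 8 of the 9 higher members (60.4% of higher table genes did the same) the PBS order was 2, 3, 1. The 23 T cell receptor signalling genes in the table also all had PBS library 2 highest. Endothelial markers other than the members had PBS library 2 highest in 8 of 12, mesenchymal markers in 2 of 18.

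**Figure D2:**
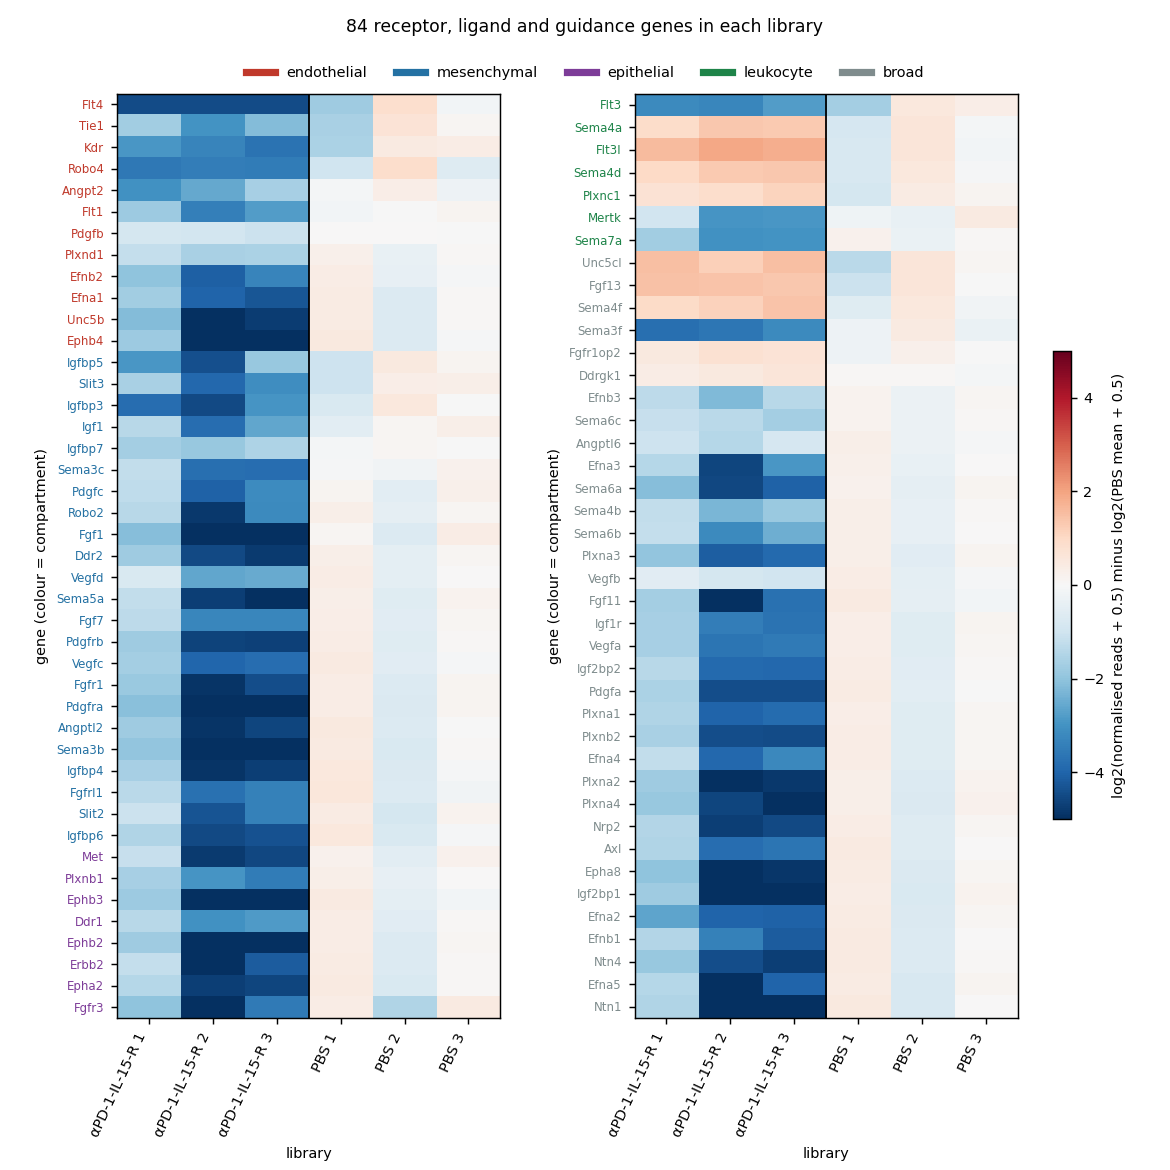
Each row is 1 of the 84 genes and each column 1 library, treated libraries left of the line in each panel; colour gives log2(normalised reads + 0.5) minus the same of the PBS mean (saturated at both ends of the scale), and name colours give the compartment. Blue fills the treated columns for 75 genes and red for 9; within PBS, library 1 is the highest for 57 of the lower genes and library 2 for 11, which stand near the top of the endothelial and mesenchymal blocks and include Flt3 and Sema3f in the other panel.

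Promoter sequences of 5 members are shown so that the genes of the 3 patterns can be set side by side: Kdr and Tie1 (PBS library 2 highest), Axl and Igfbp4 (PBS library 1 highest) and Flt3l (higher in the treated libraries). Each is the 250 bases before the annotated start in RefSeq's mouse build GRCm38.p6, written 5′ to 3′ on the gene's strand, and 71 of the 84 members had such an entry. No source used here names the genome build behind the deposited counts. Capitals mark matches, on either strand, to CCGGAA (Ets type), GGGCGG (GC box), TGANTCA (AP-1) and GGAATG (TEAD). They also mark TATAAA (an element near many start sites) and CCAAT (the core of NF-Y sites). CCGGAA is a longer form of GGAA, the core of Ets factor sites, which are much used in endothelial promoters. GGAA alone was not marked.
Kdr: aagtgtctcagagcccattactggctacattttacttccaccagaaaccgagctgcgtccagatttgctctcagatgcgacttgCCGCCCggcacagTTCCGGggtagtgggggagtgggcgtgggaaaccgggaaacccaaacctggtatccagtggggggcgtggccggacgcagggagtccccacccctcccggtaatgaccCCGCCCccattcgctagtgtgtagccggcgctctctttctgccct
Tie1: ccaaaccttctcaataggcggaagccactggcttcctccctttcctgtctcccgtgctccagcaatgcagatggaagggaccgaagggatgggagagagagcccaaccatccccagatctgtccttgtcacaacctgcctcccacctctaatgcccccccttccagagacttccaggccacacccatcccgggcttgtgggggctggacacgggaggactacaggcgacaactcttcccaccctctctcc
Axl: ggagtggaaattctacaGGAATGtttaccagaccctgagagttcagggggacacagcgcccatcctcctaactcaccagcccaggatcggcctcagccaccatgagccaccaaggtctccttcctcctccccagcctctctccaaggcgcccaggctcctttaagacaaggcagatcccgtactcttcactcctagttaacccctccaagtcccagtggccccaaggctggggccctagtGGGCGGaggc
Igfbp4: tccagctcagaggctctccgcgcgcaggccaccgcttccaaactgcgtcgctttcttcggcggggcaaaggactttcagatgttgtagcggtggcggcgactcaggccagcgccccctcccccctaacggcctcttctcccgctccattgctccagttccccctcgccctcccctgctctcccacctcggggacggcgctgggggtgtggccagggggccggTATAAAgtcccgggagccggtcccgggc
Flt3l: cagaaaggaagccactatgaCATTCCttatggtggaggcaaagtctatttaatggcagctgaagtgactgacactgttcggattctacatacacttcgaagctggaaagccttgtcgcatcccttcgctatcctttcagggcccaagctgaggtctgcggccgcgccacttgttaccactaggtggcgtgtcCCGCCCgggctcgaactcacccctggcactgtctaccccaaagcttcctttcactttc

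The Kdr window lies at chr5:75978456-75978705 on the minus strand and holds 1 CCGGAA, read on the opposite strand as TTCCGG, and 2 GC boxes. The Tie1 window, chr4:118489850-118490099 on the minus strand, held none of the 6 motifs, though the shorter GGAA does occur in it. Axl, chr7:25788734-25788983 on the minus strand, held 1 GGAATG and 1 GC box, and Igfbp4, chr11:99040994-99041243 on the plus strand, 1 TATAAA. Flt3l, chr7:45136433-45136682 on the minus strand, held 1 GGAATG and 1 GC box, the same motifs as Axl, although the log2 changes of the genes had opposite signs. Of 32851 windows of this length, 12.0% held CCGGAA, 32.7% a GC box, 6.75% TGANTCA, 12.6% GGAATG, 12.4% TATAAA and 33.8% CCAAT. The Ets and TEAD motifs share letters and can run into each other, but no matches overlapped in these 5 windows. A match describes the sequence only.

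The endothelial receptors Kdr, Flt4, Tie1 and Robo4 had few reads in treated libraries and more in PBS libraries. Kdr, the main signalling receptor for VEGF-A, had 5.93, 4.38 and 3.20 normalised reads in treated libraries 1 to 3, against 15.7, 66.2 and 61.7 in PBS libraries 1 to 3. PBS library 1 held far fewer Kdr reads than the other PBS libraries but still more than any treated library. Kdr fell by 3.37 on the log2 scale (SE 0.69, edgeR adjusted p = 0.043), a 10.3-fold lower level in the treated libraries. Flt1, a high-affinity receptor that also acts as a decoy for VEGF-A, had 47.4, 15.3 and 23.5 reads in the treated libraries, against 151, 165 and 185 in the PBS libraries. Here the PBS libraries were close together, and Flt1 fell by 2.53 (SE 0.46, edgeR adjusted p = 0.041). Flt4, the receptor for the lymphatic factors VEGF-C and VEGF-D, had 0 reads in each treated library and 2.77, 19.5 and 9.63 in the PBS libraries. With a floor of 3 reads per library, it was at least 3.37-fold lower in the treated libraries.

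Tie1, an orphan receptor that modulates angiopoietin signalling, had 5.93, 2.19 and 4.27 reads in the treated libraries and 6.46, 34.1 and 22.2 reads in the PBS libraries. Treated library 1 and PBS library 1 differed by less than 1 read, so the groups barely separate. Robo4, the endothelial Slit receptor family member that stabilises vessels, had about 1 read in every treated library (0.988, 1.09 and 1.07) and 8.31, 32.1 and 10.6 reads in the PBS libraries. Neither was fitted by edgeR, and the authors' deposited table gives them log2 changes of -2.33 and -4.02. Both, like Kdr and Flt4, were highest in PBS library 2, where the summed marker TPM of T cells was also highest within PBS. Of the 12 endothelial markers in the table, 8 also had their most normalised reads in PBS library 2.

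**Figure D3:**
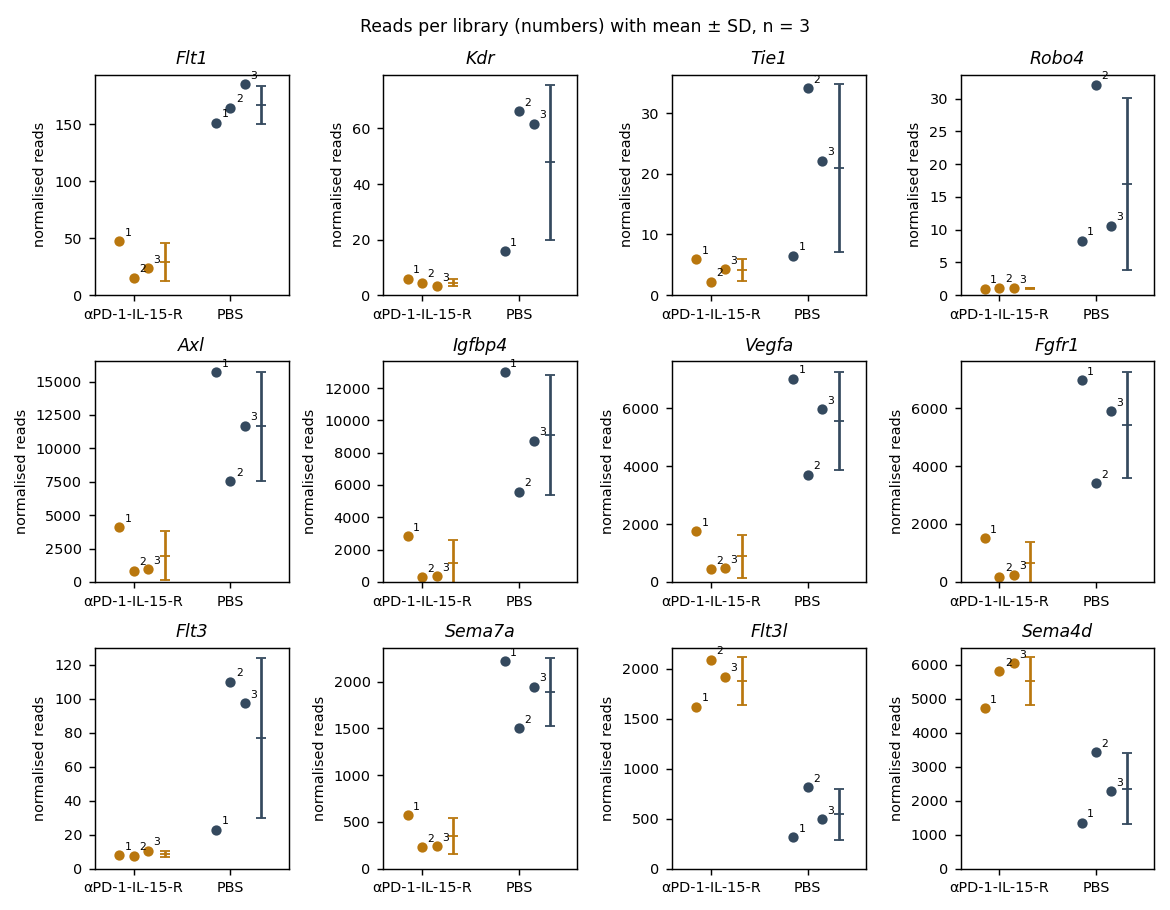
Normalised reads (vertical axis, a scale of its own per gene) of 12 members in each library, treated libraries in orange on the left and PBS libraries in dark blue on the right of each panel, scaled by the authors' size factors, with numbers naming the libraries and bars giving mean ± SD (n = 3, cut off at 0). Kdr, Tie1, Robo4 and Flt3 are lowest in PBS library 1, whereas Axl, Igfbp4, Vegfa, Fgfr1 and Sema7a are highest there and Flt3l and Sema4d lie above the PBS range in all treated libraries (Sema4d not when scaled on T cell receptor signalling genes, at a log2 change of -0.11).

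The VEGF ligands were lower as well, with the PBS order 1, 3, 2 from high to low, as in 64.4% of lower table genes. Vegfa, the hypoxia-induced ligand of Flt1 and Kdr, had 1751, 444 and 482 reads in the treated libraries, against 7027, 3709 and 5978 in the PBS libraries. Treated library 1 lay 3.78 times above the mean of the other treated libraries, and the groups did not overlap. Its log2 change was -2.64 (SE 0.65, edgeR adjusted p = 0.051), and without treated library 1 it was -3.59. Vegfc and Vegfd stood at -2.77 (edgeR adjusted p = 0.058) and -1.70 (edgeR adjusted p = 0.10). Vegfb, whose known receptor is Flt1, showed the smallest change of the lower members at -0.80 (SE 0.26, edgeR adjusted p = 0.079). Its 3 treated libraries, 383, 305 and 295 reads, stood against 747, 408 and 554 in the PBS libraries. Vegfa and Vegfb stood far above their receptors in TPM: in PBS libraries they averaged 160.3 ± 47.5 and 51.3 ± 14.0 TPM, while Flt1, Kdr and Flt4 averaged 2.51 ± 0.52, 0.83 ± 0.53 and 0.17 ± 0.14 TPM (SD, n = 3).

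Angpt2, which endothelial cells release to destabilise vessels, had 2.96, 4.38 and 8.55 reads in the treated libraries, against 25.8, 35.1 and 23.1 in the PBS libraries. Treated library 3 was the highest of its group, whereas library 1 was the highest treated library in 67 of the 75 lower members. Angpt2 fell by 2.38 (SE 0.45, edgeR adjusted p = 0.041). Its receptor Tek was outside the table. Angptl2, a secreted angiopoietin-like protein of stromal and adipose tissue, was among the most abundant members at 24.3 ± 30.0 TPM in treated libraries and 235 ± 85.0 TPM in PBS libraries (SD, n = 3). Its reads were 2498, 285 and 349 in the treated libraries and 11823, 5253 and 8307 in the PBS libraries, and it stood at -3.02 on the log2 scale (SE 0.98, edgeR adjusted p = 0.081). Angptl6 stood at -1.08 (edgeR adjusted p = 0.062).

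Of the wider VEGF and angiopoietin pathway, 15 of 20 listed partners were in the table, 13 lower and 2 higher, with 6 called lower by edgeR. Among those called, Eng, a TGF-beta co-receptor of endothelium, fell by 2.08 (SE 0.35), Pgf, the placental growth factor that binds Flt1, by 2.67 (SE 0.42), and Notch4, an endothelial Notch receptor, by 2.35 (SE 0.54). Their edgeR adjusted p-values were 0.040, 0.040 and 0.047. Cdh5, the VE-cadherin of endothelial junctions, had 15.8, 2.19 and 16.0 reads in the treated libraries and 43.4, 149 and 115 in the PBS libraries, at -3.15 (edgeR adjusted p = 0.054). Esm1, a proteoglycan released by VEGF-stimulated endothelium, went the other way, with 67.2, 58.0 and 142 reads in the treated libraries against 12.0, 40.9 and 16.4 in the PBS libraries (log2 change 1.94, edgeR adjusted p = 0.079). The table genes whose log2(TPM + 1) was most like that of Kdr over the 6 libraries were Chdh (choline dehydrogenase), Cdh22 (a cadherin), Tnn (tenascin-N), Grk3 (a G-protein-coupled receptor kinase) and Paqr5 (a membrane progestin receptor), with Pearson's r between 0.996 and 0.998. All 6 libraries share the group difference, so this is a description.

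The other members placed as endothelial were Plxnd1, Pdgfb, Unc5b, Efnb2, Efna1 and Ephb4, all lower. All 12 of the compartment were lower and 6 of the 9 fitted were called, against 57.7% of table genes lower and 20.7% of fitted ones called lower. The placing rests on textbook knowledge. Plxnd1 and Pdgfb averaged 546 and 346 normalised reads in the treated libraries, against 4.50 for Kdr, and which cells carried them was not tested. Plxnd1, the vascular receptor for Sema3e, had 648, 490.3 and 499.9 reads in the treated libraries and 1802, 1147 and 1539 in the PBS libraries, and fell by 1.45 (SE 0.21, edgeR adjusted p = 0.040). Pdgfb, with which endothelium recruits pericytes, had 364, 357 and 318 reads in the treated libraries and 692, 678 and 662 in the PBS libraries. It varied little within either group, and fell by 0.97 (SE 0.11, edgeR adjusted p = 0.040), a call lost with median-ratio scaling, at -0.56 (edgeR adjusted p = 0.068). Unc5b, the netrin receptor of sprouting vessels, had 171, 20.8 and 27.8 reads in the treated libraries, against 1011, 469 and 798 in the PBS libraries. Despite a 10.3-fold lower fitted level, Unc5b was not called (log2 change -3.37, SE 0.92, edgeR adjusted p = 0.059), and treated library 1 held 7.04 times the mean of the other treated libraries.

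Platelet-derived growth factors and their receptors were lower on both sides of the pairing. Pdgfra, the receptor that marks many fibroblasts, had 60.3, 5.47 and 5.34 reads in the treated libraries, against 337, 157 and 287 in the PBS libraries, with library 1 highest in both groups. Its change of -3.44 (SE 1.05, edgeR adjusted p = 0.072) was -5.56 without treated library 1. Its ligands Pdgfa and Pdgfc stood at -2.83 (edgeR adjusted p = 0.078) and -2.34 (edgeR adjusted p = 0.081). Pdgfrb, the pericyte receptor for PDGF-B, stood at -3.00 (edgeR adjusted p = 0.073), beside the fall of 0.97 of Pdgfb. Only the ligand of that pair passed the test, and its SE was 0.11, against 0.92 for the receptor. Pdgfrb had 371, 50.3 and 49.1 reads in the treated libraries and 1625, 824 and 1328 in the PBS libraries.

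Of 7 FGF family members, 6 were lower and 1 higher, with 0 called by edgeR. All 6 fitted had an unadjusted p below 0.05, as did 6127 of the 6251 fitted table genes. Fgfr1, the main FGF receptor of mesenchyme, had 1501, 182 and 253 reads in the treated libraries, against 6956, 3397 and 5896 in the PBS libraries. Every treated library was below every PBS library, with treated library 1 apart from the others. The change was -3.07 (SE 0.92, edgeR adjusted p = 0.070). Fgfrl1, a receptor-like protein without a kinase domain, stood at -2.42 (edgeR adjusted p = 0.075). The ligands Fgf1 and Fgf7 had at most 31.4 normalised reads in a library, at -3.67 and -2.35 (edgeR adjusted p = 0.057 and 0.062). Fgf13 is an intracellular homologue that binds sodium channels rather than FGF receptors. It had 330.0, 316 and 307 reads in the treated libraries and 56.3, 182 and 118 in the PBS libraries, at 1.42 (SE 0.43, edgeR adjusted p = 0.072), and PBS library 1 was the lowest of all. Its relative Fgf11 stood at -2.88 (edgeR adjusted p = 0.074).

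All 7 members of the IGF family were lower, and 2 were called, where 57.7% of table genes were lower and 20.7% of fitted ones were called lower. Igf1r, the receptor kinase, stood at -2.62 (SE 0.64, edgeR adjusted p = 0.051) and its ligand Igf1 at -2.35 (edgeR adjusted p = 0.058), with at most 27.0 normalised Igf1 reads in a library. Binding proteins carried most of the signal. Igfbp4, the most abundant member per length in PBS libraries, averaged 47.1 ± 60.0 TPM in treated libraries and 439 ± 166 TPM in PBS libraries (SD, n = 3). Its reads were 2842, 301 and 352 in the treated libraries, against 12987, 5578 and 8736 in the PBS libraries, and its change was -2.96 (SE 1.02, edgeR adjusted p = 0.092). The SD of the treated TPM exceeds its mean because treated library 1 held 8.70 times the mean of the others.

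Other binding proteins followed another library order. Igfbp3, the main serum carrier of IGFs, had 10.9, 6.57 and 20.3 reads in the treated libraries and 94.1, 229.8 and 157 in the PBS libraries, so PBS library 1 was the lowest of its group. It fell by 3.66 (SE 0.57, edgeR adjusted p = 0.040), a 12.6-fold lower level. Igfbp7, a vessel-associated matrix protein, had 147, 126 and 164 reads in the treated libraries and 447, 509 and 467 in the PBS libraries, and fell by 1.70 (SE 0.17, edgeR adjusted p = 0.040). Igfbp5 had the same order as Igfbp3 at -2.83 (edgeR adjusted p = 0.055), and Igfbp6 that of Igfbp4 at -2.77 (edgeR adjusted p = 0.090). Of 14 IGF pathway partners listed, 9 were in the table, 6 lower (2 called) and 3 higher (1 called). Insr, the insulin receptor, fell by 0.97 (SE 0.20), and the secreted glycoprotein gene Stc2 rose by 1.46 (SE 0.29), but stood at -0.17 when scaled on T cell receptor signalling genes. The edgeR adjusted p was 0.043 for both.

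The receptor kinases Met, Erbb2, Ddr1, Ddr2, Axl and Mertk were all lower. Axl, a receptor for Gas6 that clears dying cells and is carried by macrophages and many stromal and tumour cells, held the most reads of any member in the PBS libraries. It had 4079, 838 and 935 reads in the treated libraries, against 15705, 7525 and 11698 in the PBS libraries. No treated library reached the lowest PBS library, and the change was -2.58 (SE 0.74, edgeR adjusted p = 0.064). Mertk, its relative on macrophages, stood at -1.94 (edgeR adjusted p = 0.092). Gas6, their shared ligand and no member, had 15.8, 8.76 and 3.20 reads in the treated libraries and 65.5, 64.3 and 109 in the PBS libraries, and fell by 3.08 (SE 0.59, edgeR adjusted p = 0.042). Pros1, the other ligand, stood at -1.35 (edgeR adjusted p = 0.060).

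Met, the receptor for hepatocyte growth factor, had 381, 30.6 and 36.3 reads in the treated libraries, against 987, 597 and 979.7 in the PBS libraries. Its change was -2.51 (SE 1.06, edgeR adjusted p = 0.16), and treated library 1 held 11.4 times the mean of the other treated libraries. Without that library the change was -4.67. Hgf stood at -2.13 (edgeR adjusted p = 0.12). Erbb2, the co-receptor of the EGF receptor family, stood at -2.52 (edgeR adjusted p = 0.16), and the ErbB ligands Nrg1, Btc and Hbegf at -2.65, -3.48 and -0.88 (edgeR adjusted p = 0.13, 0.068 and 0.11). All 13 growth factor ligands in the table of 17 listed outside the member families were lower, with Gas6 and Pgf called. Ddr1, a collagen receptor, had 377, 123 and 139 reads in the treated libraries and 1295, 669.8 and 1025 in the PBS libraries, and fell by 2.23 (SE 0.53, edgeR adjusted p = 0.049). Ddr2, the collagen receptor of fibroblasts, stood at -2.99 (edgeR adjusted p = 0.072).

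Downstream of these receptors, 17 of 24 listed adaptors and feedback regulators were in the table, 15 lower (9 called) and 2 higher (0 called). Table shares were 57.7% lower and, of fitted genes, 20.7% called lower. Etv4 and Etv5, Ets transcription factors induced by FGF signalling, fell by 1.83 (SE 0.43) and 1.87 (SE 0.42). Lrig1, which limits ErbB receptors, fell by 2.67 (SE 0.53), and Spred1, an inhibitor of Ras signalling, by 1.22 (SE 0.21). Their edgeR adjusted p-values ran from 0.040 to 0.048. Dusp6, the ERK phosphatase induced by many growth factors, stood at -0.38 (edgeR adjusted p = 0.080; 0.04 with median-ratio scaling), with 1538, 1423 and 1316 reads in the treated libraries and 2011, 1621 and 1921 in the PBS libraries. The median of this list was -1.22, between that of the members and that of all fitted genes.

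**Figure D4:**
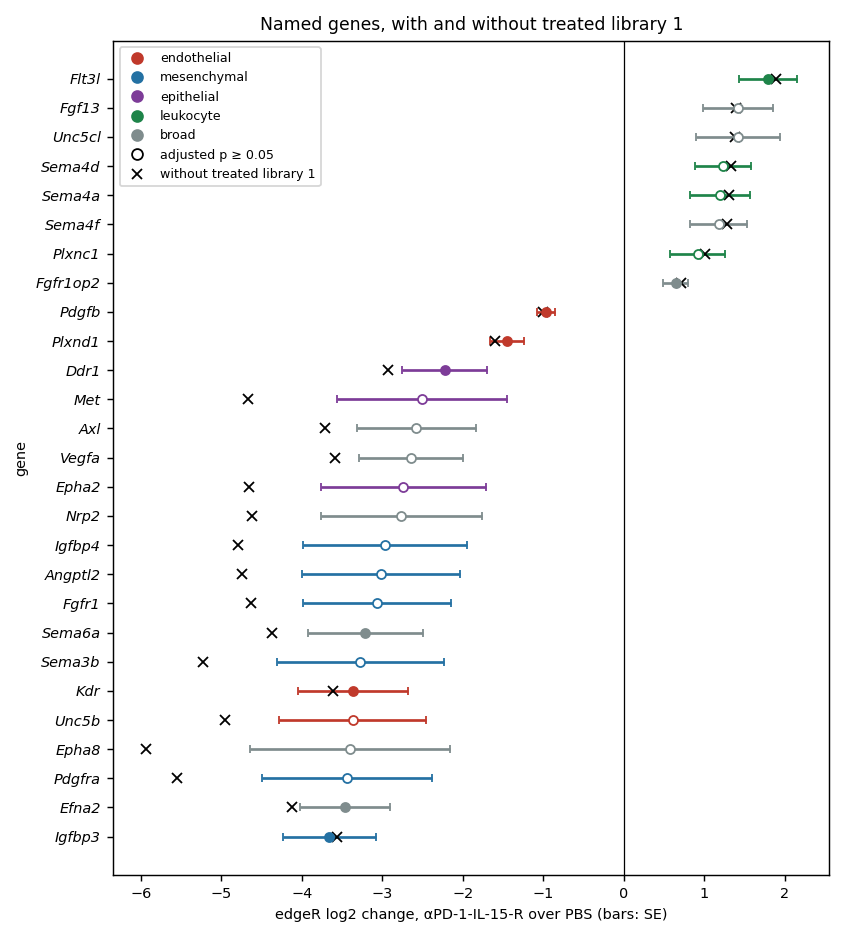
edgeR log2 change (horizontal axis, αPD-1-IL-15-R over PBS, bars giving SE) of the 27 named genes, coloured by compartment, filled where the adjusted p was below 0.05; crosses give the change without treated library 1. The crosses of Met, Epha8, Pdgfra and Igfbp4 lie well left of their circles, whereas those of Kdr, Igfbp3, Pdgfb and Flt3l lie within their SE bars.

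Eph receptors and ephrins, membrane-bound on both sides of a cell contact, were 13 of 13 lower, with 3 called, all of them ephrins (Efna2, Efnb2 and Efnb3). Epha2, an epithelial and tumour Eph receptor, had 951, 98.5 and 106 reads in the treated libraries and 3553, 1537 and 2652 in the PBS libraries. Library 1 was highest in both groups, and the change was -2.74 (SE 1.02, edgeR adjusted p = 0.11). Epha8, mainly known from the developing brain, had 34.6, 0 and 4.27 reads in the treated libraries and 185, 85.7 and 149 in the PBS libraries, at -3.40 (SE 1.24, edgeR adjusted p = 0.10). Efna2, a lipid-anchored ligand of EphA receptors, had 11.9, 4.38 and 4.27 reads in the treated libraries, against 102, 46.7 and 82.8 in the PBS libraries, and fell by 3.46 (SE 0.56, edgeR adjusted p = 0.040).

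Efnb2 and Ephb4, the arterial ligand and the venous receptor of vessel patterning, both stood lower at similar sizes. Efnb2 had 42.5, 9.85 and 17.1 reads in the treated libraries and 225, 130.5 and 167 in the PBS libraries, and fell by 2.90 (SE 0.60, edgeR adjusted p = 0.044). Ephb4 had 207, 21.9 and 19.2 reads in the treated libraries and 1021, 449 and 702 in the PBS libraries, at -3.12 (SE 1.04, edgeR adjusted p = 0.087). Both had the PBS order 1, 3, 2 from high to low, as 64.4% of lower table genes did, unlike Kdr and Tie1. Of 16 listed partners of Eph signalling, 8 were in the table, 6 lower (2 called) and 2 higher (1 called). The guanine nucleotide exchange factor Vav2 fell by 1.67 (SE 0.29) and its relative Vav3 rose by 1.31 (SE 0.29), with edgeR adjusted p-values of 0.040 and 0.045, Vav3 standing at -0.10 when scaled on T cell receptor signalling genes.

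Semaphorins and plexins were the largest family, with 17 lower (8 called) and 4 higher (0 called), the 4 turning lower when scaled on T cell receptor signalling genes. The 4 each had an unadjusted p below 0.05, as did nearly all fitted table genes. Sema3b, a secreted semaphorin that signals through neuropilins, had 136, 16.4 and 11.7 reads in the treated libraries and 729, 315 and 556 in the PBS libraries, at -3.27 (SE 1.04, edgeR adjusted p = 0.078). Nrp2, a co-receptor for secreted semaphorins and for VEGF-C, had 1759.6, 187 and 211 reads in the treated libraries, against 6342, 3162 and 5173 in the PBS libraries. Its groups did not overlap, and its change was -2.76 (SE 0.999, edgeR adjusted p = 0.10). Sema6a, a transmembrane semaphorin, had 25.7, 4.38 and 6.41 reads in the treated libraries and 134, 83.8 and 126 in the PBS libraries, and fell by 3.21 (SE 0.71, edgeR adjusted p = 0.046). Its plexin receptors Plxna2 and Plxna4 stood at -3.08 and -3.21 (edgeR adjusted p = 0.081 and 0.065).

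Sema3f, a repulsive cue that binds Nrp2, showed the largest fall of all fitted members, on few reads. It had 1.98, 2.19 and 3.20 reads in the treated libraries and 27.7, 44.8 and 26.0 in the PBS libraries, and fell by 3.68 (SE 0.42, edgeR adjusted p = 0.040). It lies outside the naming rule for low reads and was singled out after its values were seen. Of the plexins, 7 of 8 were lower, and Plxna3, Plxnb1 and Plxnd1 were called. Among 24 partners of plexin signalling listed, 18 were in the table, 14 lower (6 called) and 4 higher (1 called). Arhgef12, a guanine nucleotide exchange factor bound by B-type plexins, fell by 1.30 (SE 0.18, edgeR adjusted p = 0.040). Plxdc2, a transmembrane protein named for a plexin-like domain, rose by 1.33 (SE 0.28, edgeR adjusted p = 0.044; -0.07 when scaled on T cell receptor signalling genes).

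Netrin and Slit family members were lower throughout, 7 of 7, with 0 called by edgeR. Of the 5 fitted, 4 had an unadjusted p below 0.05, as did nearly all fitted table genes. Ntn1, the netrin ligand of Unc5b, had 477, 37.2 and 38.5 reads in the treated libraries and 1916, 774 and 1356 in the PBS libraries, at -2.87 (SE 1.14, edgeR adjusted p = 0.13). Slit2 and Slit3, ligands of the Robo receptors, stood at -2.27 and -2.60 (edgeR adjusted p = 0.14 and 0.061), in opposite PBS orders, Slit2 highest in PBS library 1 and Slit3 in PBS library 2. Robo2, a neuronal Slit receptor, had at most 16.6 reads in a library. Of 17 partners listed for these pathways, 11 were in the table, 9 lower (4 called) and 2 higher (1 called). Trio, a guanine nucleotide exchange factor used by netrin receptors, fell by 1.65 (SE 0.38) and the adaptor gene Nck1 rose by 0.62 (SE 0.11), with edgeR adjusted p-values of 0.047 and 0.040, Nck1 standing at -0.90 when scaled on T cell receptor signalling genes.

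The leukocyte members were divided, 4 higher (1 called) and 3 lower (2 called), at a median log2 change of 0.92 that turned to -0.43 when scaled on T cell receptor signalling genes. Flt3l, the growth factor of dendritic cell progenitors that T cells also release, had 1622, 2089 and 1919 reads in the treated libraries, against 315, 815 and 498 in the PBS libraries. It rose by 1.79 (SE 0.36, edgeR adjusted p = 0.043), a 3.46-fold higher level, but was not called when scaled on T cell receptor signalling genes, at 0.46 (edgeR adjusted p = 0.37). It averaged 144 ± 12.2 TPM in treated libraries and 52.9 ± 24.7 TPM in PBS libraries (SD, n = 3). Its receptor Flt3, found on dendritic cells and their progenitors, had 7.90, 7.66 and 10.7 reads in the treated libraries and 23.1, 110.0 and 97.3 in the PBS libraries. Flt3 fell by 3.12 (SE 0.68, edgeR adjusted p = 0.045), so ligand and receptor moved in opposite directions. Dendritic cell markers summed to 62.9 to 152 TPM in the treated libraries and 616 to 797 TPM in the PBS libraries, and their part in the Flt3 difference was not tested. H2-Ab1 made up most of that sum, at 578, 522 and 696.5 TPM in PBS libraries 1 to 3. Within PBS, Clec9a, Itgax, Cd209a, Siglech and Cd83 had their lowest TPM in library 1, as Flt3 did, whereas Zbtb46 and H2-Ab1 did not.

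Sema4d, or CD100, a semaphorin abundant on T cells, had 4721, 5809 and 6049 reads in the treated libraries, against 1357, 3432 and 2272 in the PBS libraries. PBS library 1 lay well below the other PBS libraries, and the change was 1.23 (SE 0.35, edgeR adjusted p = 0.063). Sema4a, which is carried by dendritic cells and activated T cells, had 5226, 6928 and 6761 reads in the treated libraries and 1554, 4157 and 2558 in the PBS libraries, at 1.19 (SE 0.37, edgeR adjusted p = 0.075). In TPM these semaphorins stood at 93.6 ± 8.85 and 156 ± 16.9 in treated libraries and 49.9 ± 22.1 and 84.8 ± 40.2 in PBS libraries (SD, n = 3). The receptors of Sema4d, Plxnb1 and Plxnb2, stood at -2.50 and -2.86 (edgeR adjusted p = 0.046 and 0.078). Sema4f, a less studied relative, had 212, 242 and 292 reads in the treated libraries and 71.1, 159.7 and 98.3 in the PBS libraries, at 1.18 (SE 0.35, edgeR adjusted p = 0.069).

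Sema7a, a lipid-anchored semaphorin of activated leukocytes, and its receptor Plxnc1 lay in opposite directions. Sema7a had 570.1, 233 and 240.3 reads in the treated libraries, against 2218, 1499.8 and 1946 in the PBS libraries, and fell by 2.44 (SE 0.42, edgeR adjusted p = 0.040). Plxnc1 had 551, 614 and 722 reads in the treated libraries and 183, 446 and 371 in the PBS libraries, at 0.92 (SE 0.34, edgeR adjusted p = 0.11). The groups of Plxnc1 did not overlap but PBS library 2 came close to treated library 1. It was the only higher gene among the 34 receptors and co-receptors. Sema4a, Sema4d, Sema4f, Plxnc1, Fgfr1op2 and Ddrgk1 turned to negative changes when the libraries were scaled on T cell receptor signalling genes, while Flt3l, Fgf13 and Unc5cl stayed positive at 0.46, 0.15 and 0.18. That scaling moved the median of all fitted genes to -2.17.

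The name matches stand apart from the families. Fgfr1op2, named as a fusion partner of FGFR1, had 2446, 2888 and 2758 reads in the treated libraries and 1442, 2037 and 1694 in the PBS libraries, and rose by 0.65 (SE 0.16, edgeR adjusted p = 0.0499). Ddrgk1, which acts in protein ufmylation, rose by 0.49 (SE 0.11, edgeR adjusted p = 0.046). Unc5cl, a death-domain protein with similarity to netrin receptors, had 122, 99.6 and 124 reads in the treated libraries and 16.6, 66.2 and 46.2 in the PBS libraries, at 1.42 (SE 0.52, edgeR adjusted p = 0.11). The RNA-binding protein genes Igf2bp1 and Igf2bp2 stood at -3.13 and -2.53 (edgeR adjusted p = 0.098 and 0.078). Without these 5 genes, 73 members were lower and 6 higher, and Flt3l was the only member called higher.

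**Figure D5:**
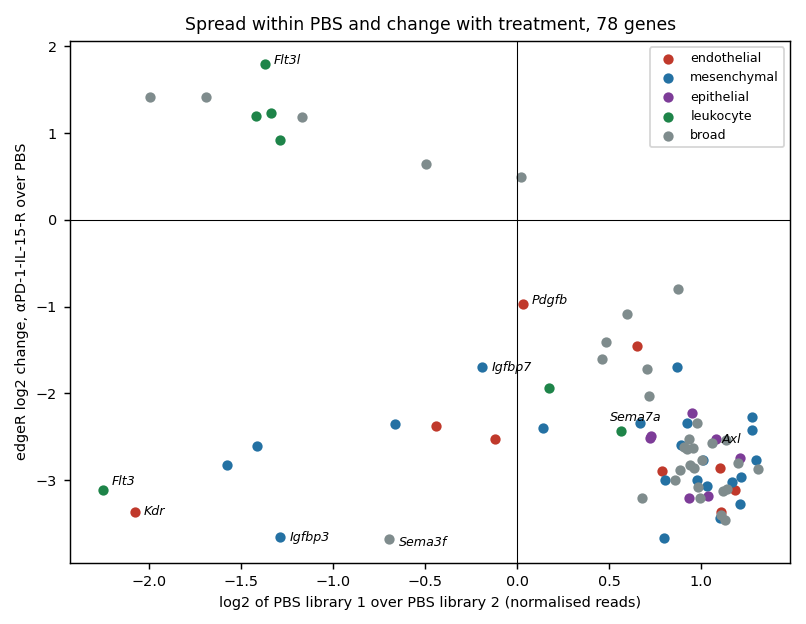
For the 78 fitted genes, log2 of PBS library 1 over PBS library 2 in normalised reads (horizontal axis) against the edgeR log2 change of αPD-1-IL-15-R over PBS (vertical axis), coloured by compartment. Most lower genes lie to the right of 0, higher in PBS library 1; Kdr, Flt3, Igfbp3 and Sema3f lie to the left among the lower genes, and 8 of the 9 higher genes lie to the left as well.

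Whether a lower member was called went with how evenly the treated libraries were reduced. The test itself weighs each change against the spread within groups, so this describes the calls and is no separate result. The 19 called lower had a median SE of 0.46 and a median ratio of 1.56 for treated library 1 over the mean of treated libraries 2 and 3. The 50 fitted and lower but not called had a median SE of 0.91 and a median ratio of 6.90, at a median log2 change of -2.77 against -2.50 for those called. In the mesenchymal compartment, where 23 of 23 were lower at a median of -2.77, 2 of 22 fitted members were called, Igfbp3 and Igfbp7, in which treated library 1 held 0.81 and 1.01 times the mean of the others. Without treated library 1 the median over members was -3.74, against -0.66 over all genes fitted, and 47.8% of the fitted table genes were called lower. The spread within PBS is shown in the plot of PBS library 1 over PBS library 2.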

How the data were processed

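RNA-seq of 6 libraries, 3 per group by the treatment label, was analysed from 1 deposited table. Per the file headers it gives read counts, which are estimated counts that need not be whole (88.7% to 90.1% were whole per library), and the authors' TPM values; its FPKM and log10(TPM + 1) columns, deposited by the authors, were not needed. The log2 fold change, p-value and q-value per gene come from the authors, per the file headers. HISAT2 and RSEM are listed in the submitters' processing notes. The test behind the q-values, the genome build and the counting of strand are not given in the sources used here. The table was read as all genes with a q-value below 0.05 among 17077 tested, since Benjamini-Hochberg adjustment over that number returned the deposited q-values.

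The authors' size factors, recovered from 3105 genes with over 200 reads in every library, were 1.01, 0.91 and 0.94 in treated libraries 1 to 3 and 1.08, 1.03 and 1.04 in PBS libraries 1 to 3. Normalised reads are counts divided by them. Rounded counts entered edgeR 4.0.16 under R 4.3.3 (6251 genes after filterByExpr, robust quasi-likelihood, two-sided, group only, no block), adjusted over 17077 genes. The SE is the size of the log2 change divided by the square root of F. The biological coefficient of variation was 0.366. The fit was tested on simulated counts. Exact permutation of 3 against 3 libraries cannot go below p = 0.10 and was not used. Alternatives were TMM, median-ratio and T cell receptor signalling scaling (23 of 30 listed genes), DESeq2 1.42.0, limma-voom 3.58.1, no filter, adjustment over the table alone, a replicate block and leaving out each library. Named with values were the 3 members of each compartment with most reads, the 8 largest rises and falls among members averaging at least 20 normalised reads, and ligand and receptor pairs. Members, compartments and lists were chosen with earlier results of these data known.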

Additional observations from a re-analysis of the deposited data

How the results depend on the processing

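The direction of all members was kept under TMM and median-ratio scaling, DESeq2, limma-voom, no filter, adjustment over the table alone, the replicate block and each left-out library. The exception was scaling on T cell receptor signalling genes, where Fgfr1op2 stood at -0.82, Plxnc1 at -0.43, Sema4a at -0.13, Sema4d at -0.11 and Sema4f at -0.18 (Ddrgk1 turned as well). Counts of calls depended on the setting. Against 19 members called lower and 3 called higher, TMM gave 21 and 3 and no filter 22 and 3. Median-ratio scaling gave 44 and 7 (17 of the 19 and all 3 among them), T cell receptor signalling scaling 43 and 0 (0 higher at an unadjusted p below 0.05), adjustment over the table alone 65 and 9, DESeq2 74 and 9, and limma-voom 66 and 7. Calls over the table moved as well, from 1296 lower and 1031 higher to 1182 and 1995 with TMM and 1641 and 1202 with no filter. They were 1686 and 2258 with median-ratio scaling and 2919 and 34 with T cell receptor signalling scaling. Adjustment over the table alone gave 3459 and 2655 table genes, DESeq2 3674 and 2677, and limma-voom 2848 and 1889. Over the whole fit the median log2 change was -0.29 with TMM and -0.15 with median-ratio scaling, against -0.57. Leaving out 1 library at a time gave 0 to 70 called lower and 0 to 6 called higher by edgeR. The replicate block gave 55 called lower (18 of the 19 among them) and 4 higher (2 of the 3), against 2594 and 1743 table genes. Replicate numbers pair the samples only by name: same-numbered libraries deviated together for numbers 1 and 2 (correlations 0.62 and 0.64) and not for number 3 (-0.29). The cause of these shifts was not tested. With 3 libraries a group and 35 lower members averaging under 100 normalised reads, counting error limits the fold changes of Flt4, Robo4, Tie1, Fgf1 and Sema3f. Scaled on T cell receptor signalling genes, listed partner genes that stood higher turned lower in 1 of 2 cases for VEGF. That case was Plcg1, itself among the scaling genes, so its turn is no separate result. Partner genes turned lower in 2 of 2 cases for receptor adaptors, 3 of 3 for IGF and 3 of 4 for plexins. They did so in 2 of 2 for Slit and netrin and 2 of 2 for Eph signalling, and no lower one turned higher. With median-ratio scaling Spry2, Dusp6 and Farp1 turned higher, at 0.05, 0.04 and 0.04.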
